A study of Mus musculus with 12 samples.

Results

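Regorafenib given alone was compared directly with an antibody against PD1 given alone in tumours of Sq-1979, a mouse head and neck squamous cell carcinoma line. The comparison took in 6 of the series' 12 RNA-seq libraries, 3 from regorafenib-treated and 3 from anti-PD1-treated tumours, chosen by their treatment labels, and all genes of the count table. The regorafenib group received the drug at 5 mg/kg/day, and the anti-PD1 group received the antibody, whose dose was not given in the sources used here. The other 6 libraries, 3 from mice given both agents (the combination) and 3 from mice given vehicle, entered the normalisation and the estimate of spread. All tumours grew subcutaneously in C3H/HeN males that were 6 weeks old when the cells were injected in Matrigel, and all dosing began 20 days after implantation. The host is immunocompetent, the tumour is a single cell line placed away from the mouth, and the treatment label gives daily oral gavage as the route for every group, the antibody included. The labels number 3 samples a group without saying that they came from separate mice, so p-values measure the spread between these samples, part of which may be technical.

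Regorafenib blocks several kinases, including the VEGF receptors and TIE2 of endothelial cells, the PDGF receptors of pericytes and fibroblasts, and RAF, which lies upstream of ERK. Anti-PD1 instead blocks an inhibitory receptor of T cells, which is engaged by PD-L1 on tumour and myeloid cells. A tumour treated with one was therefore set against a tumour treated with the other, with no untreated group inside the comparison, so a gene can differ because of either treatment.

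The 6 libraries held 22591835 to 27626855 counts in the regorafenib group and 23527359 to 28209036 counts in the anti-PD1 group. Pairs of regorafenib libraries correlated at 0.967 to 0.968 over log2 CPM of the tested genes, and pairs of anti-PD1 libraries at 0.972 to 0.983. Squamous epithelial markers were present in every library, and Krt14, a basal keratin, had 2732, 3234 and 3375 CPM in regorafenib and 3349, 4761 and 3769.5 CPM in anti-PD1. In bulk tumour RNA, fewer cells of a type and less RNA per cell cannot be told apart.

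No gene passed the test between regorafenib and anti-PD1. Of 16974 tested genes, 0 were higher and 0 were lower at an adjusted p under 0.05 (edgeR quasi-likelihood test, Benjamini-Hochberg adjustment), a called share of 0% in each direction, and the smallest adjusted p was 0.109. At an unadjusted p under 0.05 there were 1099 higher genes (6.47% of those tested) and 776 lower genes (4.57%), 1875 in all (11.0%). That count was 996 of 17355 tested without anti-PD1 library 2, 2699 of 17353 without regorafenib library 3, and 1010 of 16074 with only the 6 libraries compared. DESeq2 on the same counts called 211 genes higher (1.24%) and 76 lower (0.448%), and edgeR with a Y-linked covariate (the level of 4 genes, chosen with the data in view) called 44 higher (0.259%) and 38 lower (0.224%). The count of calls thus depended on the tool and the model, and a gene is described here as higher or lower only by its values. All 3 regorafenib libraries lay above all 3 anti-PD1 libraries for 1214 genes (7.15%), and all 3 lay below for 1008 genes (5.94%). The median log2 fold change over all tested genes was -0.01, and 48.6% of the genes were above 0.

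**Figure D1:**
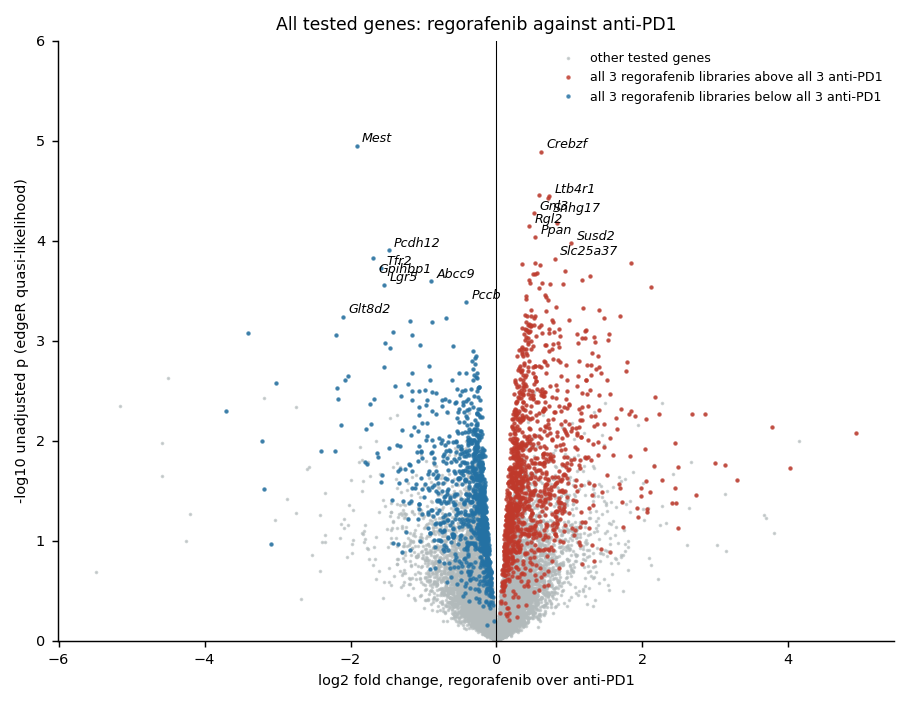
Each point is 1 of 16974 tested genes, with the log2 fold change of regorafenib over anti-PD1 on the horizontal axis and the -log10 of the unadjusted edgeR p on the vertical axis. Red and blue points are the 1214 and 1008 genes whose 3 regorafenib libraries lie wholly above or below the 3 anti-PD1 libraries. The named genes are the 8 higher and 8 lower ones with the smallest p, none of which passed after adjustment. Pseudogenes and genes with predicted, clone or RIKEN names were left out of these 8 and 8.

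The gene nearest the threshold on the lower side was Mest, an imprinted gene of the alpha/beta hydrolase family expressed in embryonic mesoderm (build GRCm38, chr6:30723547-30748465). Mest had 3.002, 2.37 and 1.92 CPM in regorafenib tumours, against 6.92, 12.7 and 7.94 CPM in anti-PD1 tumours. The highest regorafenib library was below the lowest anti-PD1 library, with a log2 fold change of -1.92 (SE 0.25, edgeR adjusted p = 0.109). Mest stood at 1.63, 2.12 and 1.81 CPM in the combination and at 13.8, 14.0 and 12.4 CPM in vehicle, so both groups without regorafenib lay above both groups with it. A stretch of 912 bases of its exons is also exon of Copg2, which is read from the other strand, and the strand setting of the counting was not given in the sources used here.

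Pseudogenes and genes with predicted, clone or RIKEN names were left out of the genes picked by p. The remaining 7 of the 8 lower genes so picked included several of the vessel wall. Gpihbp1, which anchors lipoprotein lipase to capillary endothelium, had 1.90, 4.13 and 3.54 CPM in regorafenib, against 12.1, 10.7 and 8.33 CPM in anti-PD1 (log2 fold change -1.70, SE 0.30, edgeR adjusted p = 0.151). Pcdh12, an endothelial protocadherin, had 0.803, 1.01 and 0.849 CPM in regorafenib and 2.29, 3.07 and 2.08 CPM in anti-PD1. Abcc9, the pericyte subunit of a potassium channel, had 3.76, 4.05 and 3.47 CPM in regorafenib and 7.89, 6.99 and 6.07 CPM in anti-PD1. None of these 3 genes overlapped between the groups, and all were low in absolute level. Tfr2, a transferrin receptor that takes part in iron sensing, had 0.973, 0.923 and 0.849 CPM in regorafenib against 2.25, 2.69 and 3.27 CPM in anti-PD1, and Lgr5, an R-spondin receptor of epithelial stem cells, had 2.16, 1.80 and 1.37 CPM in regorafenib against 3.44, 5.64 and 6.36 CPM in anti-PD1. Pccb, a subunit of propionyl-CoA carboxylase, had the smallest difference of the 8, with 21.5, 25.2 and 24.8 CPM in regorafenib and 31.0, 33.1 and 31.2 CPM in anti-PD1. Glt8d2, a putative glycosyltransferase, had 0.254, 0.440 and 0.332 CPM in regorafenib and 1.103, 2.27 and 1.08 CPM in anti-PD1. Adjusted p-values of these 7 genes were 0.151 to 0.169 in edgeR.

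On the higher side the nearest genes included nuclear and nucleolar ones with small, even differences. Oas1b, described with the interferon-induced genes below, ranked 7 by p over all tested genes but was left out as a polymorphic pseudogene. Crebzf, a bZIP transcription factor (chr7:90442729-90447994), had 59.96, 63.8 and 67.8 CPM in regorafenib, against 44.3, 39.3 and 42.0 CPM in anti-PD1. The 3 libraries of each group lay close together and did not overlap, with a log2 fold change of 0.61 (SE 0.08, edgeR adjusted p = 0.109). Gnl3, the nucleolar GTPase nucleostemin, had 92.1, 76.4 and 81.8 CPM in regorafenib and 59.2, 57.1 and 58.1 CPM in anti-PD1. Ppan, a ribosome assembly factor, had 64.4, 54.3 and 55.2 CPM in regorafenib and 39.6, 38.7 and 42.2 CPM in anti-PD1. For Gnl3 the vehicle libraries, at 70.6, 77.2 and 75.0 CPM, also lay above all anti-PD1 libraries.

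Slc25a37, which carries iron into mitochondria, had 92.4, 82.6 and 91.7 CPM in regorafenib, against 53.5, 45.9 and 53.7 CPM in anti-PD1. Susd2, a sushi-domain membrane protein, had the largest difference of the 8, with 94.4, 80.3 and 84.1 CPM in regorafenib and 34.7, 45.1 and 47.6 CPM in anti-PD1 (log2 fold change 1.02, SE 0.17, edgeR adjusted p = 0.151). Both genes were clear of overlap. Ltb4r1, a leukotriene B4 receptor of granulocytes, had 12.98, 12.4 and 13.5 CPM in regorafenib and 7.81, 7.22 and 8.55 CPM in anti-PD1. Rgl2, an exchange factor for Ral GTPases, had 41.2, 45.7 and 45.0 CPM in regorafenib and 30.3, 32.0 and 34.6 CPM in anti-PD1. The eighth, Snhg17, is described with its family below. DESeq2 called 8 of these 8 higher genes (beside 1.24% of all tested genes) and 8 of the 8 lower ones (beside 0.448%). Its adjusted p ran from 2.18e-07 to 4.47e-04 on the higher side and from 1.33e-08 to 0.00796 on the lower. The genes had been picked by their edgeR p on the same counts, so these calls are no independent support.

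**Figure D2:**
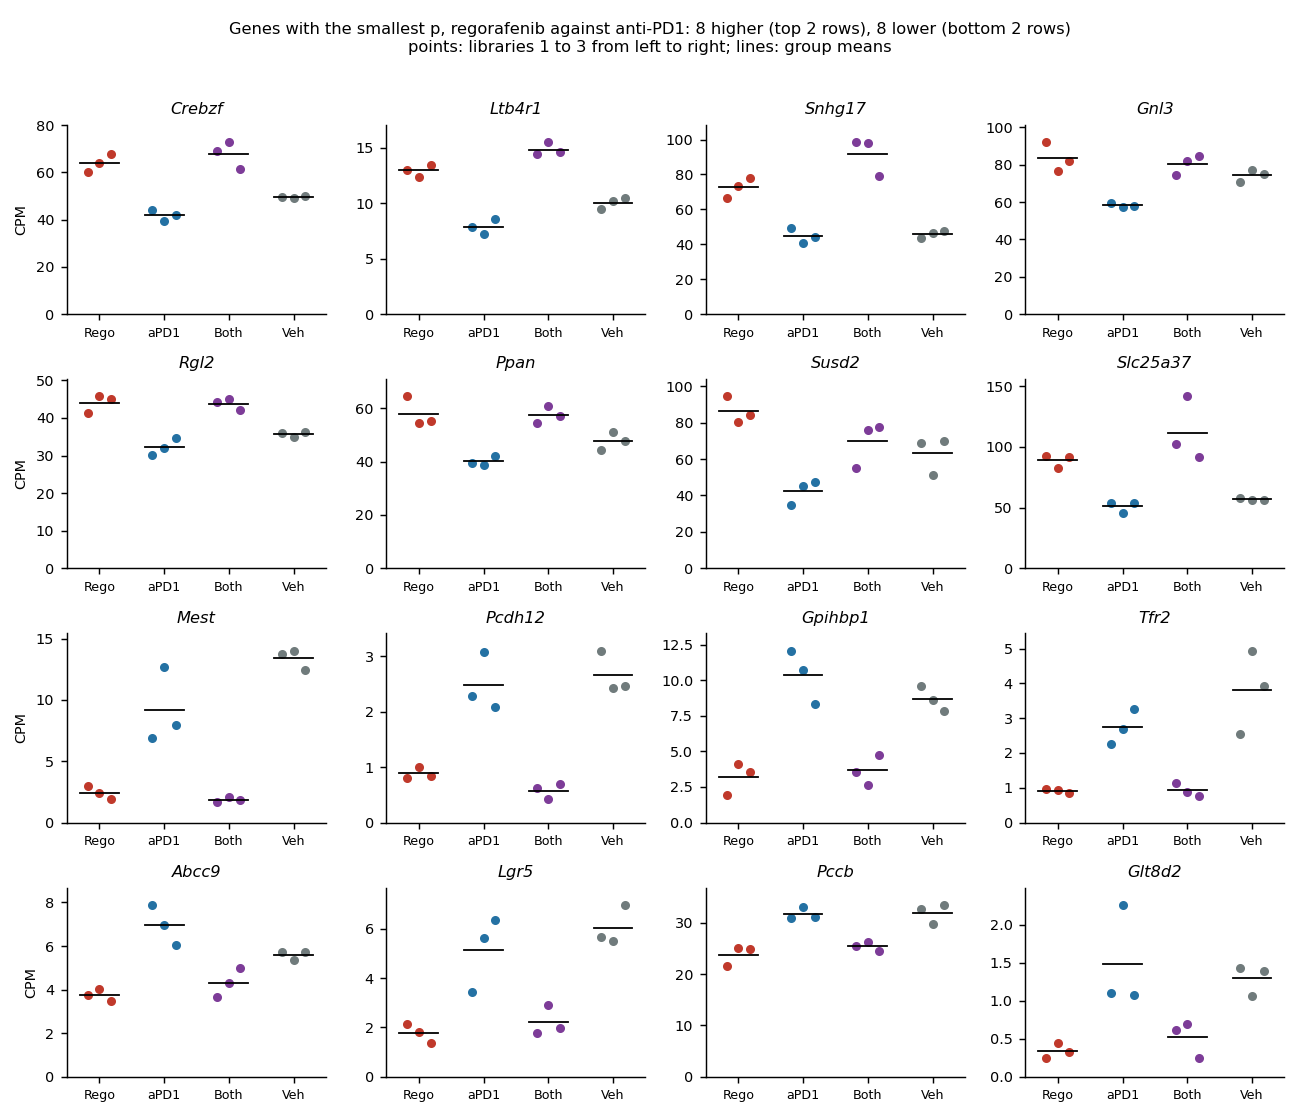
TMM-normalised CPM (vertical axes, each from 0) in the 12 libraries for the 16 genes with the smallest p, 8 in each direction, with pseudogenes and predicted, clone or RIKEN names left out. Rego is regorafenib, aPD1 anti-PD1, Both the combination and Veh vehicle, points are single libraries and lines group means. In all 16 panels the regorafenib and anti-PD1 points do not overlap, and in the lower 8 the combination points lie wholly below the vehicle points.

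The 6 combination and vehicle libraries, which take no part in this contrast apart from the shared normalisation and spread, were read for the same genes. Of the 8 lower genes, 8 also had all 3 combination libraries below all 3 vehicle libraries, and of the 8 higher genes 6 had them above, with Gnl3 and Susd2 overlapping. Over all tested genes, the combination lay above vehicle without overlap for 19.6% and below it for 19.6%. Among the 1214 genes with regorafenib above anti-PD1, the combination was above vehicle without overlap for 669 (55.1%) and below for 34 (2.8%). Among the 1008 genes with regorafenib below anti-PD1, the combination was below vehicle for 410 (40.7%) and above for 41 (4.07%). Seen from the other side, the 669 were 20.1% of the 3325 genes with the combination above vehicle, and the 410 were 12.3% of the 3328 genes below.

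With the same kinds of identifier left out, of genes averaging at least 10 CPM whose groups did not overlap, those with the largest positive log2 fold changes were Eln (elastin, 1.69), C4b (complement component, 1.68), Arhgap26 (a GTPase-activating protein, 1.44), Hap1 (huntingtin-associated protein, 1.37), Mmp3 (stromelysin, 1.34) and Padi3 (a peptidylarginine deiminase of hair follicle and epidermis, 1.27). Mmp3 had 199, 85.2 and 124 CPM in regorafenib, against 73.1, 29.6 and 58.3 CPM in anti-PD1, and 164, 214 and 163 CPM in the combination. C4b had 64.9, 19.7 and 20.2 CPM in regorafenib, against 12.9, 6.41 and 13.4 CPM in anti-PD1, with regorafenib library 1 far above the others of its group, and its near copy C4a could share reads. The corresponding lower genes were Aff3 (a nuclear transcription elongation factor, -1.55), Tagln (transgelin, -1.53), Sohlh1 (a germ cell transcription factor, -1.44), Nid2 (basement membrane nidogen, -1.31), Aldh3b2 (an aldehyde dehydrogenase, -1.19) and Lzts1 (a leucine zipper protein, -1.16). Aff3 had 8.12, 17.2 and 16.1 CPM in regorafenib and 47.2, 45.8 and 28.1 CPM in anti-PD1, and its vehicle libraries, at 23.9, 17.6 and 18.8 CPM, were below all anti-PD1 libraries. Adjusted p-values of these 12 genes were 0.151 to 0.428 in edgeR.

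By count, type I interferon-induced genes were the list with the most members free of overlap between the groups; members named for being free of overlap, here and in the lists that follow, were picked after their values were seen. These genes are switched on when interferon signalling brings transcription factors to interferon-stimulated response elements, and the oligoadenylate synthetases among them make the messenger that activates RNase L on viral RNA. Promoters of 3 synthetases that lay higher in regorafenib are shown because they hold that element, searched as GAAA, any 2 bases and GAAA again on both strands and printed in capitals, with overlapping matches merged. The sequences are RefSeq's, build GRCm38.p6, 250 bases upstream of the gene start, given on the gene's own strand, which is minus for all 3 (Oas3 at chr5:120777660-120777909, Oas1g at chr5:120887614-120887863, Oas1a at chr5:120907526-120907775).
Oas3: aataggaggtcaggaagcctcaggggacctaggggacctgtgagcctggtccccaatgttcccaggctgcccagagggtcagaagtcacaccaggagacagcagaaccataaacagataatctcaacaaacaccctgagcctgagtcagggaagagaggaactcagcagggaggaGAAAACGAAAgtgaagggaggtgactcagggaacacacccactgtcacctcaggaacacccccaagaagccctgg
Oas1g: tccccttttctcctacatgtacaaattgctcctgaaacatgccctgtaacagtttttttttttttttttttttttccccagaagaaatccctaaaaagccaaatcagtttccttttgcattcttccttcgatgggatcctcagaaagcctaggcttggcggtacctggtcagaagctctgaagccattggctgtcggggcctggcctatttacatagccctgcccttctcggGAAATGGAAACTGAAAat
Oas1a: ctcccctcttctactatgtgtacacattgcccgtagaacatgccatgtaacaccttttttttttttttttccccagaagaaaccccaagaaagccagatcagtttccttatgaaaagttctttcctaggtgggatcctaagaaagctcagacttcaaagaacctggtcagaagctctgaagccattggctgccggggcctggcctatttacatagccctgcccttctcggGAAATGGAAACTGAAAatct
The match began 75 bases before the start in Oas3, 18 in Oas1g and 20 in Oas1a. A match was found in 11 of the 24 members with a window (45.8%), against 2.98% of all 32851 RefSeq windows and 3.4% of 11708 tested genes with one. Among members that lay higher without overlap it was found in 4 of 10, and among those whose groups overlapped in 7 of 14.

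Of 35 tested interferon-induced genes, 0 passed the edgeR test in either direction. The log2 fold change was positive for 34 and negative for 1, with a median of 0.63 against -0.01 over all tested genes. At an unadjusted p under 0.05, 23 were higher (beside 6.47% of all tested genes) and 1 lower (beside 4.57%). All regorafenib libraries lay above all anti-PD1 libraries for 14 (40% of the list, beside 7.15% of all tested genes). Of these 14, 9 also lay higher in the combination than in vehicle without overlap, beside 55.1% of all genes higher in regorafenib without overlap. DESeq2 called 5 of the 35 higher (beside 1.24% of all tested genes), Oas2, Oas3, Oas1b, Oas1g and Mx2. Oas2 had 330.3, 288 and 204 CPM in regorafenib, against 108, 89.8 and 157 CPM in anti-PD1 (log2 fold change 1.21, SE 0.26, edgeR adjusted p = 0.169; DESeq2 adjusted p = 0.00271). Oas3 had 368, 328 and 277 CPM in regorafenib, against 204, 129 and 203 CPM in anti-PD1. Neither gene overlapped between the groups, and in vehicle they stood at 114, 106 and 104 CPM and at 152, 134 and 125 CPM, in that order. Mx2, a gene for a GTPase that restricts viruses, is annotated as a polymorphic pseudogene. Mx2 had 115, 113 and 87.5 CPM in regorafenib and 67.8, 52.0 and 71.6 CPM in anti-PD1. Oas1b, an Oas1 copy annotated as a polymorphic pseudogene, had 62.8, 64.7 and 58.0 CPM in regorafenib and 37.9, 28.1 and 38.8 CPM in anti-PD1.

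Oas1g and Oas1a are close copies, and reads could be split between them. Oas1g had 90.2, 71.3 and 58.0 CPM in regorafenib and 37.5, 31.8 and 51.1 CPM in anti-PD1, and Oas1a, chosen for its promoter after its values were seen, had 189.9, 149 and 125 CPM in regorafenib against 88.8, 84.0 and 125 CPM in anti-PD1, with regorafenib library 3, at 125.2 CPM, just above anti-PD1 library 3, at 124.7 CPM. The 1 member that lay lower, Ifi27, was also singled out after its values were seen. Ifi27 had 17.6, 34.8 and 32.2 CPM in regorafenib and 51.0, 57.9 and 45.1 CPM in anti-PD1, without overlap (log2 fold change -0.86, edgeR adjusted p = 0.322). The spread inside each group was wide: the list's mean level, on the log2 scale relative to the vehicle mean, was 0.95, 0.75 and 0.29 in the regorafenib libraries and 0.13, -0.27 and 0.40 in the anti-PD1 libraries, which overlap. The list's median was 0.42 without anti-PD1 library 2, 0.43 without regorafenib library 1 and 0.81 without anti-PD1 library 3.

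**Figure D3:**
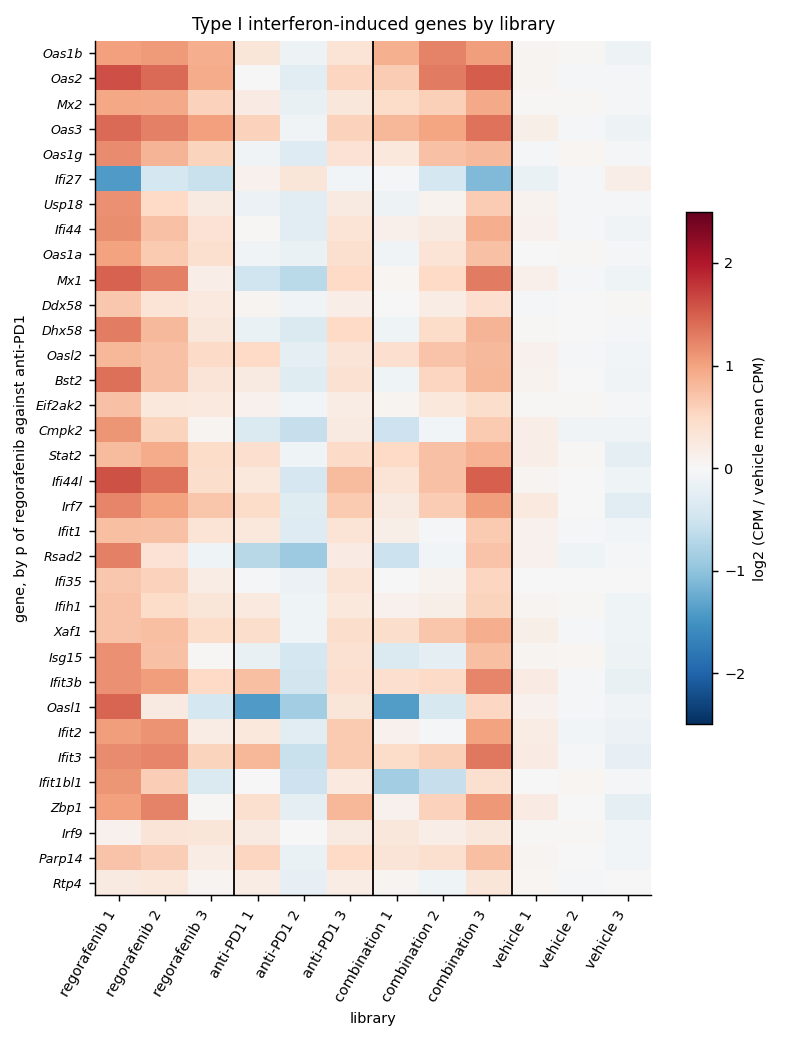
Log2 ratio of CPM to the vehicle mean (colour) for 34 of the 35 tested type I interferon-induced genes (rows, ordered by p) in the 12 libraries (columns). Regorafenib libraries are red for most genes and library 3 is the palest of them, anti-PD1 library 2 is blue for most, and Ifi27 runs the other way.

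Genes induced mainly by interferon gamma, which T and NK cells secrete, were evenly split. Of 26 tested, 13 were above 0 and 13 below, with a median log2 fold change of 0.01, 0 at an unadjusted p under 0.05 and 0 without overlap. With each library left out in turn the lowest and highest medians were -0.31 without regorafenib library 2 and 0.18 without regorafenib library 3, and pairs of this kind are given for many of the lists that follow. Nlrc5, the activator of MHC class I genes, had 511, 619 and 432 CPM in regorafenib and 453, 304 and 463 CPM in anti-PD1. MHC class I presentation genes had a median of 0.07 over 17 members, with Canx, an endoplasmic reticulum chaperone, the only one without overlap (0.16), which is 5.88% of the list beside 7.15% of all tested genes. Class II genes had a median of -0.05 over 13 members, which was -0.43 without regorafenib library 2 and 0.30 without anti-PD1 library 3. The class I median was -0.046 without anti-PD1 library 2 and 0.18 without regorafenib library 3. Among 16 nonclassical class I genes the median was 0.01, or -0.083 without regorafenib library 2 and 0.23 without regorafenib library 3. H2-T10 (0.52) and H2-T22 (0.31) lay higher without overlap (12.5%, beside 7.15%) and H2-M5 (-1.68) lower (6.25%, beside 5.94%). H2-T10 and H2-T22 are close copies that could share reads, and H2-T10 is annotated as a polymorphic pseudogene.

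Small nucleolar RNA host genes carry snoRNAs, guides of ribosomal RNA modification, in their introns, and many of their spliced transcripts are degraded when translated. Of 14 tested, 0 passed in edgeR and DESeq2 called 5 higher (beside 1.24% of all tested genes), Snhg6, Snhg17, Snhg3, Snhg15 and Snhg20. The log2 fold change was positive for 12, with a median of 0.21, and 6 lay higher without overlap (42.9%, beside 7.15% of all tested genes) while 1, Snhg18, lay lower (7.14%, beside 5.94%). The median was 0.10 without regorafenib library 3 and 0.32 without regorafenib library 2. Snhg17 had 66.7, 73.1 and 77.8 CPM in regorafenib, against 49.0, 40.7 and 44.2 CPM in anti-PD1 (log2 fold change 0.70, SE 0.10, edgeR adjusted p = 0.126; DESeq2 adjusted p = 1.7e-05). Snhg17 in vehicle, at 43.5, 46.2 and 47.6 CPM, lay with anti-PD1, and in the combination, at 98.5, 98.2 and 79.3 CPM, above every regorafenib library. Snhg15 had 30.4, 25.9 and 29.2 CPM in regorafenib and 21.2, 18.5 and 18.6 CPM in anti-PD1, and Snhg20 had 22.7, 27.2 and 28.6 CPM in regorafenib and 19.98, 13.8 and 15.7 CPM in anti-PD1. Snhg6, the most even of them, had 25.0, 23.4 and 23.6 CPM in regorafenib and 17.6, 19.6 and 17.8 CPM in anti-PD1. Of the 6 genes higher without overlap, 5 also lay higher in the combination than in vehicle without overlap, beside 55.1% of all genes higher in regorafenib without overlap. The exons of Snhg17, Snhg15 and Snhg20 contain small RNA genes on the same strand, whose reads cannot be told apart from theirs.

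Genes of sprouting tip cells, the endothelial cells at the front of a growing vessel, leaned lower in regorafenib by their median, though the list's level overlapped. Of 16 tested, 0 passed in edgeR, 11 had a negative log2 fold change, the median was -0.37, and 6 lay lower without overlap (37.5%, beside 5.94% of all tested genes) against 1 higher, Pdgfb (6.25%, beside 7.15%). Apold1, an endothelial early response gene, had 2.24, 1.36 and 1.96 CPM in regorafenib, against 3.90, 2.99 and 3.66 CPM in anti-PD1. Kcne3, a potassium channel subunit of tip cells, had 1.40, 1.71 and 0.923 CPM in regorafenib and 2.80, 3.57 and 2.95 CPM in anti-PD1. Nid2 had 11.6, 17.7 and 5.68 CPM in regorafenib and 17.9, 36.3 and 32.4 CPM in anti-PD1. DESeq2 called these 3 lower (beside 0.448% of all tested genes), with adjusted p of 0.0248, 0.0276 and 0.0263 in that order. Apln, the ligand of the apelin receptor, had 4.31, 1.23 and 2.399 CPM in regorafenib and 8.99, 6.14 and 5.42 CPM in anti-PD1, with no overlap. All 6 lower members also lay lower in the combination than in vehicle without overlap, beside 40.7% of all genes lower in regorafenib without overlap. The 1 higher member did not also lie higher there, beside 55.1% of all genes higher in regorafenib without overlap. Without anti-PD1 library 3 the list's median was -0.16. The list's mean level relative to vehicle was -0.23, -0.56 and -0.78 in regorafenib (log2). In anti-PD1 it was -0.25, -0.11 and 0.04, with overlap. Summed CPM of the list ran from 559 to 836 in regorafenib, highest in library 1, and from 632 to 774 in anti-PD1.

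Endothelial markers as a whole differed less. Of 24 tested, 14 were below 0, with a median of -0.13, which was 0.10 without anti-PD1 library 3 and 0.07 without regorafenib library 3. Pcdh12, Emcn, Tie1, Cdh5 and Cldn5 lay lower without overlap (20.8%, beside 5.94%), and Tek and Ecscr lay higher (8.33%, beside 7.15%). In the combination against vehicle, 4 of the 5 also lay lower without overlap, and 0 of the 2 also lay higher. Of all genes without overlap, 40.7% of those lower in regorafenib and 55.1% of those higher did the same. Cldn5, the claudin of endothelial tight junctions, had 2.62, 2.29 and 2.18 CPM in regorafenib, against 6.15, 3.92 and 5.71 CPM in anti-PD1 (log2 fold change -1.15, edgeR adjusted p = 0.169). Emcn, a sialomucin of capillaries and veins, had 3.34, 3.39 and 4.47 CPM in regorafenib and 7.51, 6.26 and 4.99 CPM in anti-PD1. The pan-endothelial Pecam1 had 34.7, 32.6 and 24.9 CPM in regorafenib and 29.4, 27.3 and 37.9 CPM in anti-PD1 and overlapped, as did Kdr, which encodes VEGF receptor 2, with 15.9, 18.8 and 7.64 CPM in regorafenib and 10.9, 13.01 and 23.1 CPM in anti-PD1. Summed CPM of the 24 markers ran from 230.1 to 322 in regorafenib and from 273 to 343 in anti-PD1.

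Among 14 VEGF and angiopoietin genes, 3 lay lower (21.4%, beside 5.94%) and 2 higher (14.3%, beside 7.15%) without overlap, with a median of -0.13 that was 0.06 without regorafenib library 3 and 0.08 without anti-PD1 library 3. In the combination against vehicle, 2 of the 3 also lay lower without overlap (beside 40.7%), and 0 of the 2 also lay higher (beside 55.1%). Angpt2, the angiopoietin released by activated endothelium, had 5.20, 5.10 and 4.73 CPM in regorafenib and 7.21, 6.37 and 6.90 CPM in anti-PD1. Flt4, which encodes VEGF receptor 3, had 3.55, 4.57 and 5.13 CPM in regorafenib and 8.27, 5.87 and 7.94 CPM in anti-PD1. In contrast, the ligand gene Vegfa had 137, 89.6 and 176 CPM in regorafenib, against 86.9, 68.3 and 58.1 CPM in anti-PD1, without overlap (log2 fold change 0.92, SE 0.34, edgeR adjusted p = 0.377). Vehicle libraries, at 89.1, 126 and 61.3 CPM for Vegfa, spanned both groups. Vegfa is also a hypoxia gene, and of 24 tested hypoxia and glycolysis identifiers 17 were above 0, with a median of 0.08, which was -0.11 without regorafenib library 3 and 0.23 without regorafenib library 2. Hk2, hexokinase 2, had 135, 91.9 and 133 CPM in regorafenib and 84.0, 86.5 and 69.6 CPM in anti-PD1, without overlap. Vegfa and Hk2 were 8.33% of the hypoxia list, beside 7.15% of all tested genes. A further 1 member lay lower without overlap (4.17%, beside 5.94%).

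Pericyte markers had a median of -0.22 over 12 members, 9 of them below 0, and 3 lay lower without overlap (25%, beside 5.94%). These were Abcc9, its channel partner Kcnj8, with 1.48, 1.19 and 1.22 CPM in regorafenib and 3.05, 2.11 and 2.05 CPM in anti-PD1, and Cox4i2, with 0.127, 0.704 and 0.480 CPM in regorafenib and 0.764, 1.23 and 1.36 CPM in anti-PD1. All 3 lay lower in the combination than in vehicle as well, beside 40.7% of all genes lower in regorafenib without overlap. Cspg4, which encodes the pericyte proteoglycan NG2, ran the other way with a log2 fold change of 1.36. The mean level of the list relative to vehicle was -0.75, -0.36 and -0.35 in regorafenib and -0.15, -0.10 and -0.18 in anti-PD1 on the log2 scale, without overlap. Summed CPM of the list did overlap, at 403 to 561 in regorafenib and 491 to 579 in anti-PD1. The median was -0.24 without anti-PD1 library 1 and -0.14 without anti-PD1 library 3. Of 9 contractile genes of smooth muscle and myofibroblasts, Tagln and Actg2 lay lower without overlap (22.2%, beside 5.94%). Tagln had 11.0, 13.7 and 12.3 CPM in regorafenib and 23.3, 54.7 and 28.6 CPM in anti-PD1. Actg2 had 0.592, 0.748 and 0.701 CPM in regorafenib and 2.33, 2.42 and 1.33 CPM in anti-PD1. The contractile list's median was 0.15, or 0.039 without regorafenib library 3. Its mean level relative to vehicle ran the other way, with overlap (log2). That level was -0.36, -0.61 and -0.51 in regorafenib and -0.40, -0.08 and -0.31 in anti-PD1.

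Fibroblast and matrix genes had the lowest median of the stromal lists, but its size depended on single libraries. Of 25 tested, 22 were below 0, the median was -0.49, 0 passed in edgeR and 2, Fmod and Col8a2, lay lower without overlap (8%, beside 5.94%). Col8a2, a network-forming collagen chain, had 0.888, 1.06 and 0.517 CPM in regorafenib, against 2.08, 6.03 and 3.16 CPM in anti-PD1 (log2 fold change -2.20, edgeR adjusted p = 0.169; DESeq2 adjusted p = 0.00278). Col1a1, the main fibrillar collagen chain, had 4256, 12386 and 2003 CPM in regorafenib and 2411, 11459 and 13089.6 CPM in anti-PD1, so the groups overlapped widely. Lum, a collagen-binding proteoglycan, had 53.0, 136 and 29.3 CPM in regorafenib and 48.2, 279 and 267 CPM in anti-PD1. The list's mean level relative to vehicle was -1.06, -0.22 and -1.79 in regorafenib and -1.35, 0.07 and 0.05 in anti-PD1 (log2). Its median was -0.10 without regorafenib library 3, -0.15 without anti-PD1 library 3, -0.22 without anti-PD1 library 2 and -1.0 without regorafenib library 2. Summed CPM of 4 Y-linked genes, carried by the male host's cells and by any tumour cell that keeps a Y chromosome, ran 32.1, 41.7 and 18.1 in regorafenib and 21.2, 28.4 and 42.2 in anti-PD1, and with that covariate the list's median was -0.42.

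Lists near to it in function differed among themselves. All 10 mesenchymal transition factors were below 0, with a median of -0.22, and Tcf4 (-0.29) and Snai2 (-0.41), both transcription factors, lay lower without overlap (20%, beside 5.94%). The median was -0.44 without regorafenib library 2 and -0.12 without anti-PD1 library 3. Tcf4 had 113, 125 and 114 CPM in regorafenib and 139.9, 147 and 143 CPM in anti-PD1, and DESeq2 gave it an adjusted p of 0.00326. Imprinted growth genes had a median of -0.42 over 13 members, 10 of them below 0, which was -1.18 without regorafenib library 2 and -0.25 without anti-PD1 library 2. Peg3, a paternally expressed zinc finger gene, had 4.52, 10.07 and 4.91 CPM in regorafenib, against 9.89, 22.7 and 17.6 CPM in anti-PD1. Apart from Mest (7.69% of the list, beside 5.94%), no imprinted member was free of overlap. The 14 TGF-beta genes were split, with a median of -0.04 that was -0.025 without anti-PD1 library 2 and 0.029 without regorafenib library 1. The ligand Tgfb2 lay lower (-0.52) without overlap (7.14%, beside 5.94% of all tested genes) and the inhibitor Smad7 higher (0.34; 7.14%, beside 7.15%).

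The median log2 fold change kept its sign with each of the 6 libraries left out in turn for 20 of the 47 lists, among them the type I interferon, snoRNA host, tip cell, pericyte, fibroblast, mesenchymal, imprinted, iron, ERK, neutrophil and macrophage lists. It changed sign without some library for 27, among them the endothelial, T cell, NK, checkpoint, B cell, dendritic, interferon gamma, MHC, cell cycle, epithelial, sterol, fatty acid, TGF-beta, chemokine receptor, skeletal muscle, adipocyte and red cell lists.

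**Figure D4:**
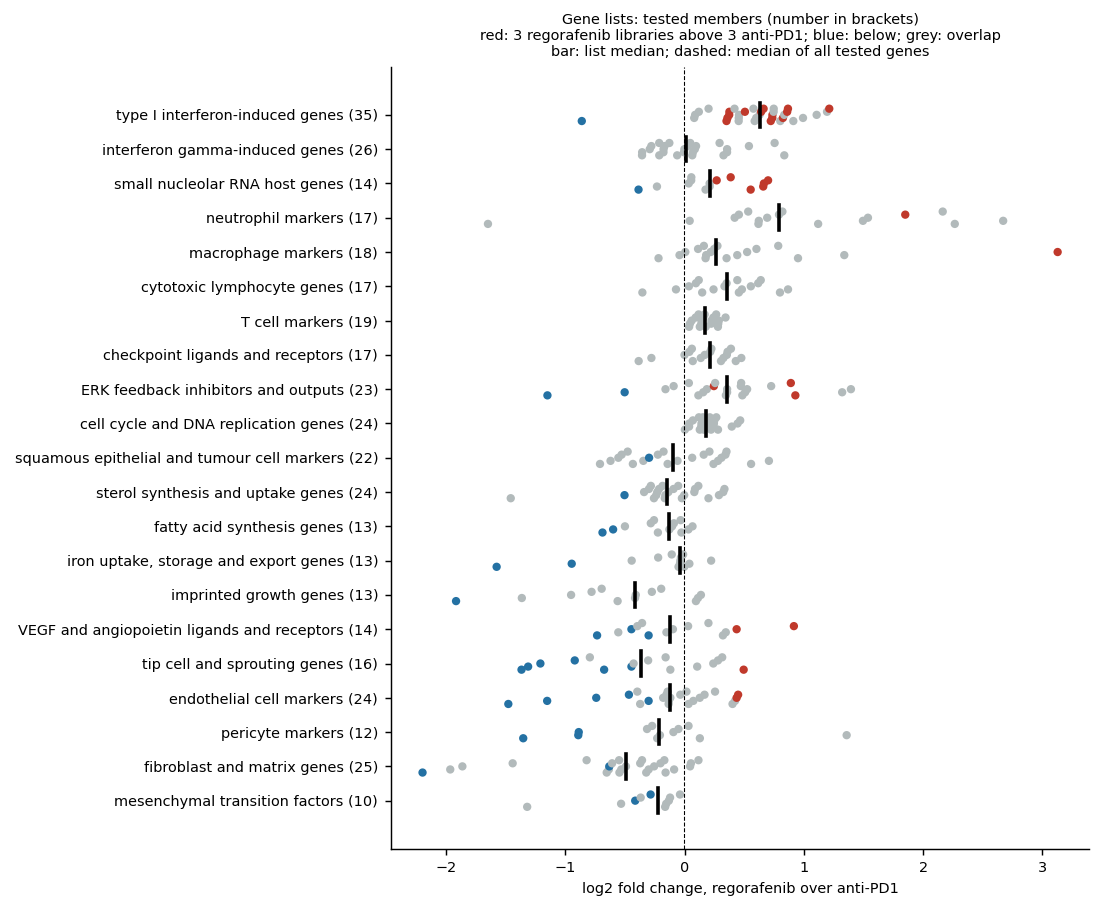
Log2 fold change of regorafenib over anti-PD1 (horizontal axis) for each tested member of 21 gene lists (rows, number tested in brackets). Red points have all regorafenib libraries above all anti-PD1 libraries, blue points below and grey points overlap, the short bars are list medians, the type I interferon row holds 14 red points and 1 blue, and the snoRNA host row holds 6 red and 1 blue.

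T cell markers, the compartment that carries PD1, did not separate the groups. All 19 tested genes were above 0, yet by 0.04 to 0.34 on the log2 scale, with 0 at an unadjusted p under 0.05 and 0 without overlap. Cd8a, of cytotoxic T cells, had 31.6, 35.1 and 15.7 CPM in regorafenib and 24.8, 15.4 and 30.3 CPM in anti-PD1, and Cd4 had 40.6, 56.4 and 17.98 CPM in regorafenib and 22.2, 19.5 and 62.4 CPM in anti-PD1. The median of 0.17 was 0.62 without anti-PD1 library 3. It was -0.15 without anti-PD1 library 2 and -0.037 without regorafenib library 2, so its sign depended on single libraries. Pdcd1, which encodes PD1, had 14.9, 14.4 and 8.86 CPM in regorafenib and 13.6, 6.26 and 16.7 CPM in anti-PD1 (log2 fold change 0.06, 95% interval -0.88 to 1.00). Cd274, which encodes PD-L1, had 116, 181 and 86.9 CPM in regorafenib and 226, 77.5 and 162 CPM in anti-PD1 (log2 fold change -0.28, 95% interval -1.12 to 0.57). Of the panel of 18 genes, which holds these 4, 0 passed and 0 were free of overlap. For Cd274 the interval reached past 1 log2 unit on the lower side.

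Effector genes of lymphocytes overlapped between the groups. Cytotoxic genes had a median of 0.35 over 17 members, checkpoint genes 0.21 over 17, NK receptor genes 0.30 over 9 and regulatory T cell genes 0.24 over 8, with 0 members of any of the 4 lists at an unadjusted p under 0.05 or free of overlap. These medians were 0.10 without anti-PD1 library 2 and 0.76 without anti-PD1 library 3 for cytotoxic, -0.021 without anti-PD1 library 2 and 0.60 without anti-PD1 library 3 for checkpoint, -0.23 without regorafenib library 2 and 0.81 without anti-PD1 library 3 for NK and -0.036 without anti-PD1 library 2 and 0.63 without anti-PD1 library 3 for regulatory T cell genes. Gzmb, a granzyme, had 64.2, 57.0 and 13.4 CPM in regorafenib and 21.8, 12.5 and 42.9 CPM in anti-PD1. Prf1, perforin, had 11.2, 9.67 and 7.31 CPM in regorafenib and 6.70, 3.92 and 8.55 CPM in anti-PD1. Ifng had 1.82, 1.45 and 0.591 CPM in regorafenib and 0.933, 0.576 and 1.72 CPM in anti-PD1, and Foxp3, the regulatory T cell factor, had 10.3, 8.13 and 3.77 CPM in regorafenib and 5.05, 3.03 and 10.3 CPM in anti-PD1. In each of these genes regorafenib libraries 1 and 2 and anti-PD1 library 3 were the high ones. The chemokines that draw T cells varied alike, with Cxcl9 at 142, 204 and 63.5 CPM in regorafenib and 123, 60.7 and 207 CPM in anti-PD1 and Cxcl10 at 249, 179 and 81.6 CPM in regorafenib and 97.7, 71.0 and 181 CPM in anti-PD1. B and plasma cell genes had a median of -0.19 over 13 members, which was -0.85 without regorafenib library 1 and 0.48 without anti-PD1 library 3, led by the immunoglobulin constant gene Ighg2c at 0.338, 0.440 and 0.111 CPM in regorafenib and 4.67, 0.0768 and 26.8 CPM in anti-PD1. In the combination Ighg2c stood at 20.2 and 21.2 CPM in libraries 1 and 2 and at 23 CPM in library 3.

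**Figure D5:**
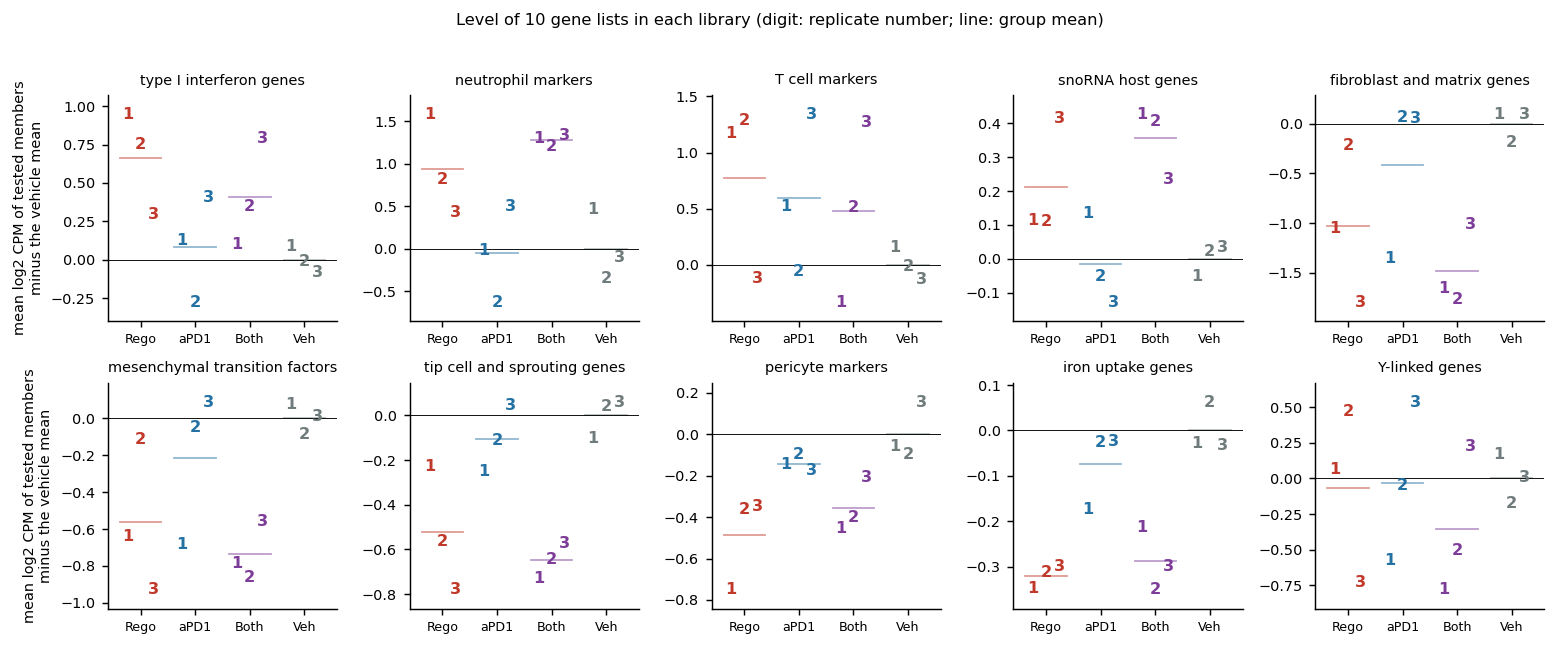
Mean log2 CPM of the tested members of 10 gene lists, minus the vehicle mean (vertical axes), with 1 digit per library giving its replicate number and a line for the group mean; Rego is regorafenib, aPD1 anti-PD1, Both the combination and Veh vehicle. On this mean log2 scale the pericyte and iron lists separate regorafenib from anti-PD1, though their summed CPM overlap, while the T cell, fibroblast and Y-linked lists spread widely inside both groups.

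Neutrophil markers had the highest median of the immune lists, 0.79 over 17 members, with 16 above 0 and 6 higher at an unadjusted p under 0.05 (beside 6.47% of all tested genes). Clec4d, a C-type lectin of neutrophils and macrophages, was the 1 member without overlap (5.88%, beside 7.15%), at 2.20, 1.76 and 1.03 CPM in regorafenib and 0.339, 0.154 and 0.862 CPM in anti-PD1. Slfn4, a schlafen gene of myeloid cells, had 59.1, 31.8 and 12.6 CPM in regorafenib and 4.41, 3.76 and 13.3 CPM in anti-PD1, where library 3 of each group met. DESeq2 called these 2 genes higher (beside 1.24% of all tested genes). The median was 1.30 without anti-PD1 library 1, 0.48 without anti-PD1 library 2 and 0.46 without regorafenib library 1. Defining granule genes Ngp, Camp and Ly6g had too few counts to be tested.

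Macrophage markers had a median of 0.26 over 18 members, 16 above 0, with Cd163, a scavenger receptor, the 1 free of overlap (5.56%, beside 7.15%) at 20.7, 3.12 and 4.43 CPM in regorafenib and 1.74, 0.998 and 0.503 CPM in anti-PD1. The median was 0.10 without regorafenib library 2 and 0.68 without anti-PD1 library 3. Csf1r, the receptor of macrophage growth factors, overlapped, at 122, 151 and 58.2 CPM in regorafenib and 77.9, 86.4 and 177 CPM in anti-PD1. Polarisation and inflammatory genes had a median of 0.69 over 16 members and 0.21 without regorafenib library 1. That library was the high one for Arg1, arginase, with 21.7, 3.25 and 2.66 CPM in regorafenib and 4.79, 1.23 and 1.80 CPM in anti-PD1, and for Mrc1, the mannose receptor, with 70.6, 21.8 and 19.05 CPM in regorafenib and 10.6, 12.1 and 21.3 CPM in anti-PD1. Chemokine ligands had a median of 0.54 over 31 members, and 0.16 without that library. Ccl25 lay higher without overlap at 10.02, 9.89 and 9.23 CPM in regorafenib and 7.09, 6.64 and 7.40 CPM in anti-PD1, as did Ccl6 (both together 6.45% of the list, beside 7.15%). Of 20 chemokine receptors the scavenging receptors Ackr3 (-0.79) and Ackr4 (-0.70) lay lower without overlap (10%, beside 5.94%). The receptors' median of 0.21 was -0.13 without anti-PD1 library 2 and 0.75 without anti-PD1 library 3, -0.063 without regorafenib library 1 and -0.041 with a filter at a mean of 1 CPM. Dendritic cell markers had a median of -0.03 over 13 members and mast cell and eosinophil markers -0.01 over 10. For dendritic cells it was -0.25 without anti-PD1 library 2 and 0.68 without anti-PD1 library 3, and for mast cells and eosinophils -0.59 without regorafenib library 2 and 0.67 without anti-PD1 library 3.

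Outputs of the ERK pathway, which RAF feeds, were mixed. Of 23 tested, 19 were above 0 with a median of 0.36, and 3 lay higher without overlap (13%, beside 7.15%) and 2 lower (8.7%, beside 5.94%). In the combination against vehicle, 2 of the 3 also lay higher without overlap (beside 55.1%), and 2 of the 2 also lay lower (beside 40.7%). The median was 0.22 without regorafenib library 3 and 0.61 without regorafenib library 2. Spred3, an inhibitor of RAS signalling, had 5.79, 3.69 and 3.21 CPM in regorafenib and 1.91, 2.30 and 2.44 CPM in anti-PD1. Etv1, an ETS factor, had 2.33, 1.89 and 1.51 CPM in regorafenib and 0.849, 1.11 and 1.11 CPM in anti-PD1. Spry4, a feedback inhibitor, ran the other way with 1.52, 0.923 and 1.07 CPM in regorafenib and 2.38, 3.19 and 2.26 CPM in anti-PD1, and DESeq2 called it lower (adjusted p = 0.0287). Dusp6, the ERK phosphatase, had 187, 139 and 204 CPM in regorafenib and 103, 134 and 144 CPM in anti-PD1 and overlapped. The 17 tested genes for kinases that regorafenib inhibits had a median of -0.20, which was -0.31 without regorafenib library 2 and -0.008 without anti-PD1 library 3, with Flt4 lower (5.88%, beside 5.94%) and Tek higher (5.88%, beside 7.15%) without overlap. EGF family genes had a median of 0.06 over 14 members, 0 of them free of overlap, and this was -0.13 without regorafenib library 1 and 0.27 without regorafenib library 2.

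Metabolic lists were shifted by little, and their sign was mostly negative. Sterol genes had a median of -0.15 over 24 members, 17 below 0, with the mevalonate kinase gene Mvk at 15.4, 11.6 and 13.1 CPM in regorafenib and 17.2, 20.7 and 18.9 CPM in anti-PD1, and DESeq2 called Mvk lower. The sterol median was -0.24 without regorafenib library 1 and 0.081 without regorafenib library 2. Fatty acid genes had a median of -0.13 over 13 members, 11 below 0, and 2 lay lower without overlap (15.4%, beside 5.94%). Their median was -0.25 without regorafenib library 3 and 0.012 without regorafenib library 2. Idh1, an isocitrate dehydrogenase that makes NADPH, had 31.1, 29.8 and 32.8 CPM in regorafenib and 39.7, 63.1 and 48.3 CPM in anti-PD1 (edgeR adjusted p = 0.169; DESeq2 adjusted p = 0.00511). Acss2, which makes acetyl-CoA from acetate, had 15.9, 14.6 and 19.6 CPM in regorafenib and 27.3, 29.1 and 19.7 CPM in anti-PD1. Iron genes had a median of -0.04, with 11 of 13 members below 0 and Tfr2 and the exporter gene Slc40a1 lower without overlap (15.4%, beside 5.94%), the second at 4.02, 5.19 and 6.61 CPM in regorafenib and 11.5, 11.6 and 7.54 CPM in anti-PD1. Their mean level relative to vehicle was -0.35, -0.31 and -0.30 in regorafenib and -0.17, -0.03 and -0.02 in anti-PD1 (log2), without overlap, while summed CPM overlapped at 3361 to 3898 in regorafenib and 3755 to 3921 in anti-PD1. Leaving out anti-PD1 library 1 gave a median of -0.075.

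Genes of squamous epithelium, the cell cycle, the cornified envelope and the ATF4 stress response overlapped between the groups almost throughout. Which cells of the bulk tissue they came from was not tested. Squamous epithelial markers had a median of -0.10 over 22 members, which was -0.15 without regorafenib library 3 and 0.019 without regorafenib library 2, and only the desmoglein gene Dsg3 was free of overlap (4.55%, beside 5.94% of all tested genes), at 195, 180.4 and 222 CPM in regorafenib and 243, 268 and 223 CPM in anti-PD1. Epcam had 335, 173 and 327 CPM in regorafenib and 301, 246 and 201 CPM in anti-PD1. All 24 cell cycle genes were above 0, with a median of 0.18 and 0 at an unadjusted p under 0.05. Mki67, a proliferation marker, had 515, 241 and 301 CPM in regorafenib and 323, 298 and 324 CPM in anti-PD1, and without regorafenib library 1 the list's median was -0.24. Cornified envelope genes had a median of 0.81 over 12 tested members and -0.02 without regorafenib library 2, in which Krt10, a keratin of upper epidermal layers, stood at 27.1 CPM, beside 0.507 and 0.517 CPM in regorafenib libraries 1 and 3 and 0.297, 0.653 and 0.611 CPM in anti-PD1. ATF4 stress response genes had a median of 0.24 over 22 members, which was 0.042 without regorafenib library 1 and 0.43 without regorafenib library 2, with Atf4 itself at 260.5, 191 and 224 CPM in regorafenib and 169, 173 and 187 CPM in anti-PD1, without overlap (4.55% of the list, beside 7.15% of all tested genes).

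The 7 tested mitochondrially encoded genes were all above 0, with a median of 0.23, and 5 lay higher without overlap (71.4%, beside 7.15%). Of these 5, 0 lay higher in the combination than in vehicle without overlap, beside 55.1% of all genes higher in regorafenib without overlap. Mitochondrial genes took 1.43% to 1.496% of counts in regorafenib and 1.16% to 1.27% in anti-PD1. Immediate early and heat shock genes, which can respond to handling, had a median of 0.11 over 15 members, which was -0.08 without regorafenib library 1 and 0.22 without anti-PD1 library 1. Of these, Hspa8 (0.25) and Hsp90aa1 (0.30) lay higher without overlap (13.3%, beside 7.15%) and Jund (-0.33) lower (6.67%, beside 5.94%). Skeletal muscle markers had a median of 0.63 over 15 members and summed to 25.4, 556 and 465 CPM in regorafenib and 268, 163 and 291 CPM in anti-PD1, which shows unequal amounts of muscle RNA among the libraries. The muscle median was -0.051 without regorafenib library 2 and 1.20 without regorafenib library 1. Adipocyte markers had a median of 0.44 over 10 members, which was -0.045 without regorafenib library 1 and 1.38 without anti-PD1 library 2. Schwann cell markers had a median of 0.03 over 10, which was 0.013 without regorafenib library 1 and 0.50 without anti-PD1 library 1, and 3 of them lay higher without overlap (30%, beside 7.15%). Of these 3, 1 also lay higher in the combination than in vehicle without overlap, beside 55.1%. Red cell markers had a median of -0.53 over 3, which was -1.71 without regorafenib library 3 and 1.74 without anti-PD1 library 1. Of 15 hair follicle and sebaceous markers 2 were tested, with a median of 0.55. Padi3 was the 1 free of overlap (50% of the 2, beside 7.15%). Their part in the results above was not tested.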

How the data were processed

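RNA was measured in 12 tumour samples, of which the 3 regorafenib and 3 anti-PD1 samples were compared. The authors deposited raw read counts, not normalised, as 1 table of 55487 identifiers, 22937 of them at 0 in every library. Per the labels, libraries were stranded and made from polyadenylated RNA. The submitters' processing notes name cutadapt 2.4, STAR 2.7.2a and build GRCm38. How reads were counted, including the annotation and whether strand was used, is not given in the sources used here. Besides Mest, other named genes share exon bases with a gene on the opposite strand. Among them are Nid2 (437 bases, Rtraf), Glt8d2 (367, Tdg), Tagln (1241, Gm48529) and Ccl25 (204, Elavl1). Exons of Gnl3 and Ppan also hold snoRNA genes on the same strand. GENCODE M21 supplied symbols and coordinates (55227 identifiers matched with the version ignored).

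Genes were kept with edgeR 4.0.16 filterByExpr (minimum count 10, minimum total 15). All 12 libraries were normalised together with TMM factors and fitted as 4 group means under R 4.3.3 (quasi-likelihood F test, robust, two-sided, 8 residual degrees of freedom, biological coefficient of variation 0.227). The p-values were adjusted by Benjamini-Hochberg over 16974 tested genes. SEs are the log2 fold change over the square root of F. Levels are TMM-normalised CPM, and list levels are means of log2 CPM with a prior count of 2. A gene was called free of overlap when all 3 libraries of one group lay above all 3 of the other.

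The genes named are those with the smallest p (8 higher, 8 lower), the 6 higher and 6 lower with the largest fold change among genes free of overlap that average at least 10 CPM, up to 4 members of smallest p in each of 47 lists, and a panel of 18. Pseudogenes (polymorphic ones included), antigen receptor variable segments and predicted, clone, microRNA or RIKEN names were left out when picking by p or by fold change, but not from the lists. Other members free of overlap were added after their values were seen. Members, lists and panel were chosen with earlier results of these data known. Promoter windows came from RefSeq. Alternatives were DESeq2 1.42.0, RLE factors, other filters, the replicate number as a block, the 6 libraries alone, each library left out, and, added after the data were seen, a covariate of Y-linked level. Replicate pairs differed by more than sampling noise in every group. The fit was tested on simulated data with 50 changed genes at each of several sizes. It recovered 24% of 1.5-fold, 56% of 2-fold, 80% of 3-fold and 94% of 5-fold changes, with 6 false calls. Differences of the smaller sizes could thus be missed. Values of some single list members are not reported here, though counts and medians include them.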

Additional observations from a re-analysis of the deposited data

How the results depend on the processing

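The count of 0 genes in each direction was also found with RLE factors, a filter at a mean of 1 CPM, only the 6 libraries compared, and each of the 6 libraries left out in turn (0 to 0). Without a filter 1 gene was lower, Mest (edgeR adjusted p = 0.0333). DESeq2 called 211 genes higher and 76 lower, and the Y-linked covariate, chosen after the data were seen, gave 44 higher and 38 lower; the cause was not tested. Fitting the replicate number as a block left 0 calls, with a smallest adjusted p of 0.459. Deviations of same-numbered libraries correlated at -0.06, 0.00 and -0.66, and those of differently numbered ones at -0.48 to 0.531. With 3 libraries a group, these values cannot show whether the numbers pair the samples, and the labels do not say. Of 112 genes named, 100 kept their direction under every alternative run. With one library left out, log2 fold changes ranged from -0.61 to 0.11 for Cd274, -0.23 to 0.88 for Cd4, -0.011 to 0.51 for Cd8a, -0.32 to 0.43 for Csf1r, -0.33 to 0.57 for Cxcl9, -0.061 to 0.87 for Foxp3, -0.10 to 0.76 for Ifng, -0.40 to 0.24 for Kdr, -0.016 to 4.71 for Krt10, -0.22 to 0.38 for Mki67, -0.26 to 0.35 for Pdcd1 and -0.14 to 0.12 for Pecam1. Csf1r also turned to 0.066 under the replicate block, and Cxcl9 to -0.0080 with the Y-linked covariate. Leaving out one library left 2 in its group, whose spread was pooled with the other groups. Counts of genes free of overlap were not recomputed that way, since fewer libraries raise them by construction. Genes under about 1 CPM rest on few reads.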
